A study of Mus musculus with 25 samples.

Results

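The actin cytoskeleton and lymphocyte migration machinery was represented by a module of 51 genes, a list of how T cells build, turn over and pull on actin filaments. It drew on general knowledge but was chosen with earlier results of these data known. The shares of its members called are therefore not an independent comparison with other genes. A member was measured where a transcript cluster of the array carried its symbol and no other. Of the 51 members 47 were found this way, among 22206 clusters in all and 19572 with 1 symbol. Actg1, Actr2, Arpc3 and Rock2 were not matched by symbol and are not analysed here. The 47 members fell into 7 classes: actin and the Arp2/3 complex (6 genes), nucleation promoters with a formin and filament extension factors (8), filament turnover, capping and bundling (8), small GTPases (7), exchange factors and other GTPase regulators (8), myosin with the ERM proteins and their kinases (6), and integrin linkage (4).

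The cells were thymic invariant natural killer T (iNKT) cells, a T cell lineage that recognises lipids bound to CD1d, from mice of the C57BL/6 strain. They were sorted as TCRb+ cells that bound the CD1d tetramer loaded with PBS57 and lacked CD24, after a CD8 microbead step. Stage 1 lacked CD44 and NK1.1, stage 2 carried CD44 alone, and stage 3 carried both. Stages 1 and 2 were hybridised together as S1_S2 and stage 3 as S3. The 6 groups were wild type (WT) S1_S2 with 6 arrays, WT S3 with 7, Mst1KO (loss of the kinase Mst1 alone) S1_S2 with 4, Mst1KO S3 with 5, dKOMst (loss of Mst1 and its paralog Mst2) S1_S2 with 2, and dKOMst S3 with 1. The sources used here do not give the design of the deleted alleles, the cells that lost them, the age of the mice or whether arrays came from separate animals. The p-values therefore measure only how far these arrays spread, and part of that spread may be technical.

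Mst1 and Mst2 are kinases of the Hippo pathway, which restrains the coactivators Yap and Taz and their DNA-binding partners, the TEAD factors. In lymphocytes Mst1 is also known for its part in integrin activation downstream of the GTPase Rap1 and in migration, through adaptors and the Rac and Cdc42 exchange factors of the Dock family. A migrating T cell pushes its front forward with branched actin, which the Arp2/3 complex nucleates when WASP or WAVE proteins switch it on, and pulls up its rear with myosin. ERM proteins tie the filaments to the membrane, and talin and kindlin tie them to integrins.

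The sequences just upstream of 3 members that recur in the results are shown because Yap and Taz act through TEAD factors, whose core motif is CATTCC. Each run covers the 250 bases before the gene's start in RefSeq (GRCm38.p6), 5′ to 3′ on the gene's strand, with the motif on either strand (CATTCC or GGAATG) in capitals. Flna lies on the minus strand and its window spans chrX:74246535-74246784. The windows of Rhoh, chr5:65863334-65863583, and Capg, chr6:72549397-72549646, lie on the plus strand.
Flna: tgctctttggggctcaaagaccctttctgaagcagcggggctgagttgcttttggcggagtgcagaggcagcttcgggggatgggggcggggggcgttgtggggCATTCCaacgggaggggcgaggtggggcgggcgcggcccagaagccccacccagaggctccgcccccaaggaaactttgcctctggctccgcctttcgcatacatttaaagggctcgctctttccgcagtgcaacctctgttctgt
Rhoh: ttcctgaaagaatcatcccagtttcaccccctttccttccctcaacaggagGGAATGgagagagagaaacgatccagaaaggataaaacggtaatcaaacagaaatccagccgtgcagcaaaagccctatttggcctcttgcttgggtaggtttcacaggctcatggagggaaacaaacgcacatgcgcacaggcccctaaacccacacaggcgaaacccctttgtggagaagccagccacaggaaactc
Capg: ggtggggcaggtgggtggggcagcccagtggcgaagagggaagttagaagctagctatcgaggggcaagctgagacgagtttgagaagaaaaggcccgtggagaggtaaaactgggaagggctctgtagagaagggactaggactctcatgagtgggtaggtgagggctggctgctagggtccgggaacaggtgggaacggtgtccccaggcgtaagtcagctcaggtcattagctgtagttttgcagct
The Flna window held the motif 146 to 141 bases before the start, the Rhoh window held its complement 199 to 194 bases before it, and the Capg window held neither. Windows were matched for 39 of the 47 measured members, and 8 of these (20.5%) held CATTCC on either strand (Arpc2, Evl, Pfn1, Lcp1, Flna, Rhoh, Arhgdib and Vcl), against 14.4% of the 27025 genes in the RefSeq table. Arpc4 and Vcl were the 2 members (5.13%) with a CArG box, the motif of serum response factor, which was found upstream of 1.62% of genes. These matches describe letters and not bound sites.

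Array medians were 7.28 to 7.39 on the deposited log2 scale, but the deposited normalisation makes medians alike, so they do not measure quality. Correlations between arrays of a group were 0.981 to 0.9927. The positive minus the negative control median was 3.27 to 3.83 over all arrays. It was lower in Mst1KO S3 (3.41 to 3.62) than in WT S3 (3.57 to 3.83), with some overlap, and its part in the results below was not tested. A total of 45 members read above the array's negative control median (6.19 to 6.59) on all 25 arrays. Gsn did so on 10 arrays and Vcl on 14, so their values lie near background. Array numbers in the titles form 2 blocks, a lower one with 16 arrays and an upper one with 9. All Mst1KO arrays carry lower numbers, all dKOMst arrays carry upper numbers, and WT arrays of both stages lie in both. The labels do not say what the blocks are, and the fit held a term for them. Y-linked signal was missing from 4 arrays, Mst1KO replicates 3 and 4 of each stage (means of 4.74 to 4.84, against 7.05 to 8.02 elsewhere). Stk4, the gene of Mst1, read 9.22 to 9.40 in Mst1KO S1_S2, below all 6 WT S1_S2 arrays (10.18 to 10.74), with a log2 difference of -0.92 (SE 0.16, limma adjusted p = 0.0059). At S3 the libraries labelled Mst1KO read 9.43 to 10.13 and WT 9.69 to 10.73 (difference -0.35, SE 0.15, limma adjusted p = 0.15). The dKOMst arrays read 9.63 and 10.27 at S1_S2 and 10.08 at S3. The dKOMst difference from WT at S1_S2 was -0.74 (SE 0.2, limma adjusted p = 0.083). Where the probes lie relative to the deletion is not given, so Stk4 does not settle the labels.

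The labelled cell type was matched by its lineage markers. All 9 measured T cell and iNKT markers were above the negative controls on every array. Zbtb16, the transcription factor that defines the lineage, was at 11.36 to 12.62. The 9 include Klrb1c, the gene of NK1.1, although S1_S2 cells were sorted as lacking NK1.1. Klrb1c read 8.49 to 10.15 in WT, 8.79 to 8.99 in Mst1KO and 8.27 to 8.38 in dKOMst S1_S2. In WT S3 it read 12.41 to 12.69, and the source of the S1_S2 signal was not tested. Other marker lists moved with stage and genotype. The 7 measured proliferation genes all fell from WT S1_S2 (mean level 9.51 to 10.54 by array) to WT S3 (7.47 to 8.36), and all 7 were higher in Mst1KO S3 (8.54 to 8.89) than in WT S3. Of 4 measured NK cell genes, which mature iNKT cells share in part, 3 were higher in WT S3. Among S1_S2 arrays Ncr1 was above the negative controls on none and Tyrobp on all. Fcer1g was above them on 4 of 6 WT, 1 of 4 Mst1KO and 2 of 2 dKOMst S1_S2 arrays, and Eomes on the dKOMst S1_S2 arrays only. Of 7 measured genes of double-positive thymocytes, 2 were higher and 1 lower in Mst1KO S3 than in WT S3, with list means of 7.57 to 7.82 against 7.02 to 7.49. Cd24a was above the negative controls on no array and Rag2 on 1, of Mst1KO S3. Cd4, Cd8b1 and Ptcra were above them on every array, and Cd8a on all but 1, of dKOMst S1_S2. The list mean of 11 measured myeloid and dendritic genes was 5.95 to 6.65, near the negative controls, but 3 of the 11 were higher in WT S3 than in WT S1_S2. Among them Fcgr3, an Fc receptor gene that NK cells also express, read 6.59 to 7.02 in WT S1_S2 and 8.25 to 9.65 in WT S3, and Lyz2 read 6.19 to 6.50 and 6.93 to 7.67. Of 5 measured B cell genes, with list means of 6.39 to 6.85, 0 were called between any groups. Of 3 measured gamma-delta T cell genes 1 was lower in WT S3 than in WT S1_S2. Against WT of the same stage, 1 was higher and 1 lower in Mst1KO S1_S2 and 1 was higher in Mst1KO S3. The part of these markers in the results below was not tested, and in bulk samples fewer cells of a type and less RNA per cell cannot be told apart.

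Member values spread little within a group, with a median SD of 0.12 in WT S1_S2, 0.10 in WT S3, 0.06 in Mst1KO S1_S2 and 0.09 in Mst1KO S3, below the median over all clusters in the same groups (0.19, 0.19, 0.14 and 0.16). Of the 47 members, 28 were called in none of 7 comparisons, 12 in 1, 5 in 2 and 2 in 3, where a call is a Benjamini-Hochberg adjusted p under 0.05 over all 22206 clusters. The fit took the arrays as unpaired. With the stages paired by title number as a fixed block, Flna, Cdc42 and Stk10 lost their calls between WT stages. Coro1a and Msn lost theirs between Mst1KO stages.

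**Figure D1:**
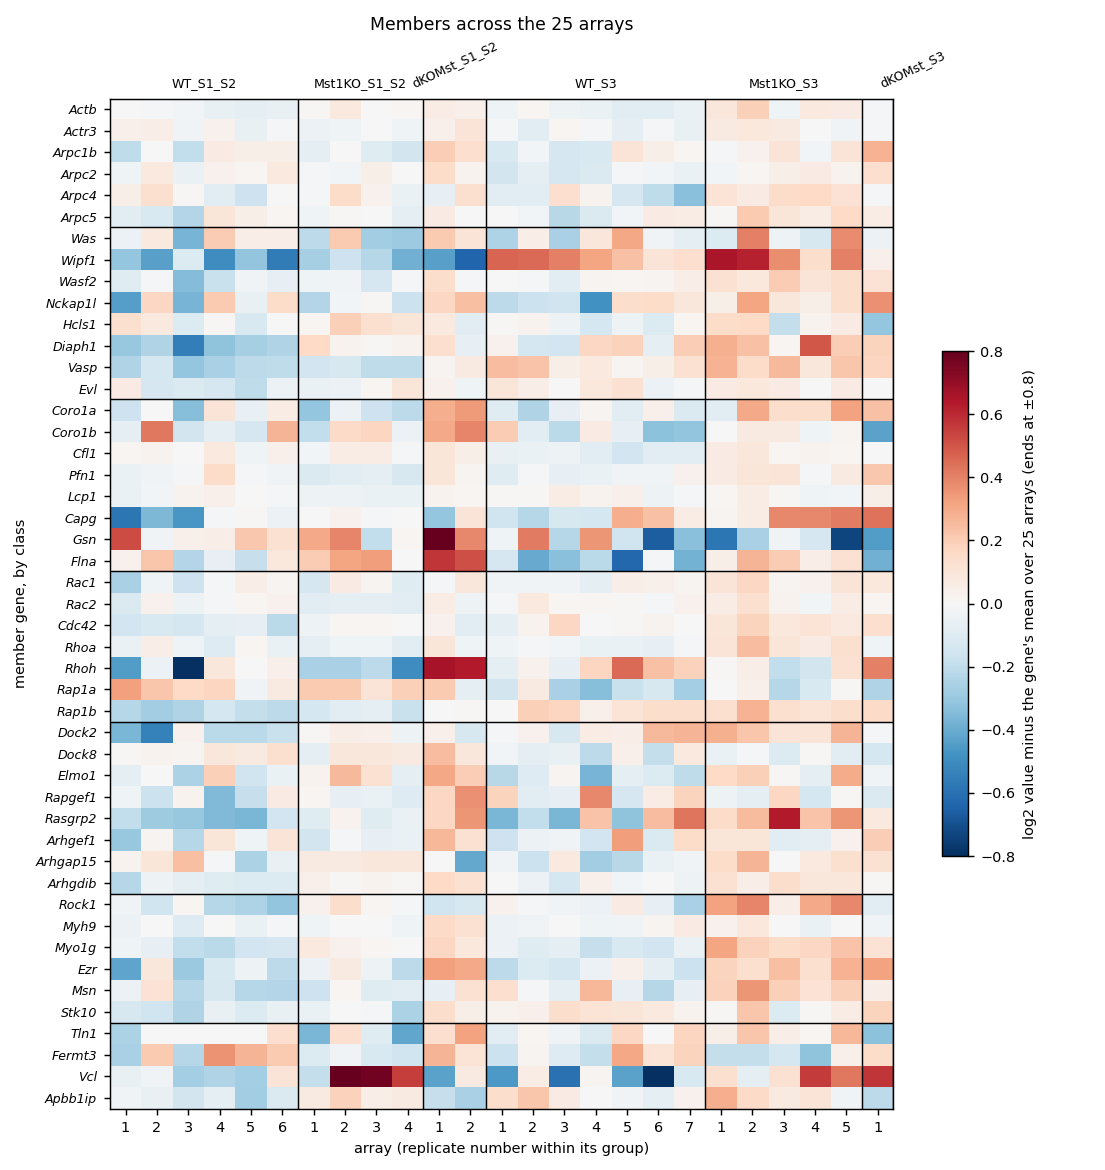
Each cell shows a member's log2 value on 1 array minus that member's mean over the 25 arrays, with members in rows by class and arrays in columns by group. Wipf1 is higher across the S3 columns, whereas most rows of the actin and Arp2/3 class stay pale throughout.

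The step from S1_S2 to S3 in WT cells asked how the machinery differs between NK1.1-negative and NK1.1-positive iNKT cells. Of the 47 members 9 were higher and 2 lower in WT S3 (23.4%), where 16.9% of all clusters were called, 8.18% higher and 8.75% lower. Among clusters above the negative controls on all arrays the share was 24.6%, and among the 45 such members it was 24.4%. As the members were chosen with earlier results of these data known, these shares are a description. Its median difference was 0.02, against 0.01 over all clusters. None of 6 actin and Arp2/3 genes was called, and the unadjusted p was under 0.05 for 17 of the 47 members (36.2%, against 27% of all clusters). The changes lay in nucleation promoters (3 of 8 higher), GTPases (3 higher and 1 lower of 7), turnover and bundling factors (1 higher and 1 lower of 8), exchange factors (1 of 8 higher) and the ERM and myosin class (1 of 6 higher).

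Wipf1 encodes WIP, which binds WASP and keeps it stable. It read 8.62, 8.80 and 9.07 (lowest, median and highest) in WT S1_S2 and 9.28, 9.49 and 9.64 in WT S3, so the groups did not overlap. The rise was 0.65 log2 units (SE 0.08, 1.57-fold, limma adjusted p = 1.4e-06), and it was 0.69 and 0.61 within the lower and upper number blocks, past the threshold in both (limma adjusted p = 0.0009 and 0.0075). Mst1KO cells showed the same step, from 8.91, 9.01, 8.95 and 8.79 at S1_S2 to 9.83, 9.79, 9.55, 9.32 and 9.58 at S3, a rise of 0.70 (SE 0.10, limma adjusted p = 1.8e-05). Genotype differences in Wipf1 were small, 0.00 (95% interval -0.21 to 0.21) at S1_S2 and 0.05 (-0.14 to 0.23) at S3. Vasp, which speeds filament extension at the leading edge, read 11.51, 11.59 and 11.68 in WT S1_S2 and 11.84, 11.90 and 12.07 in WT S3, again without overlap. It rose by 0.34 (SE 0.06, limma adjusted p = 7.8e-05) in WT and by 0.37 (SE 0.07, limma adjusted p = 0.0005) in Mst1KO. Diaph1, a formin that nucleates straight filaments, read 9.17, 9.44 and 9.48 in WT S1_S2 and 9.57, 9.76 and 9.92 in WT S3, and rose by 0.36 (SE 0.08, limma adjusted p = 0.002). Within the number blocks the Vasp rise was 0.38 and 0.29 (limma adjusted p = 0.0087 and 0.091) and the Diaph1 rise 0.35 and 0.38 (limma adjusted p = 0.089 and 0.074).

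Rap1a and Rap1b, close paralogs that switch on integrins, moved in opposite directions between the WT stages. Rap1b read 11.88 to 12.02 in WT S1_S2 (mean 11.95, SD 0.05, n = 6) and 12.16 to 12.35 in WT S3 (mean 12.27, SD 0.07, n = 7), and no S3 array fell within the S1_S2 range. Rap1a read 10.69, 10.88 and 11.05 in WT S1_S2 and 10.38, 10.54 and 10.79 in WT S3, with each S3 array below all S1_S2 arrays of its own number block. Rap1b rose by 0.33 (SE 0.05, limma adjusted p = 4.4e-05) and Rap1a fell by 0.34 (SE 0.07, limma adjusted p = 0.0014). In Mst1KO cells the same step was 0.28 for Rap1b (SE 0.06, limma adjusted p = 0.0038) and -0.24 for Rap1a (SE 0.09, limma adjusted p = 0.086). Within the upper block of WT arrays the differences were 0.31 and -0.27 and did not pass the test (limma adjusted p = 0.067 and 0.21), and within the lower block they were 0.34 and -0.41 and did (limma adjusted p = 0.013 and 0.019). Probe sequences were not used here, so signal shared between the paralogs cannot be assessed.

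The other GTPases called between WT stages were Rhoh, which lacks GTPase activity and is needed for T cell receptor signalling, and Cdc42, the GTPase that activates WASP. Rhoh read 9.40, 10.27 and 10.38 in WT S1_S2 and 10.21, 10.46 and 10.74 in WT S3, and these ranges overlap. It rose by 0.37 (SE 0.10, limma adjusted p = 0.012), with 0.48 and 0.24 within the blocks (limma adjusted p = 0.064 and 0.23). The calls of Rhoh and Cdc42 were both lost without the block term. Cdc42 rose by 0.15 (SE 0.05, limma adjusted p = 0.046), from 12.55 (SD 0.05, n = 6) to 12.70 (SD 0.07, n = 7), and 11 of the 13 fits that left out 1 array lost its call (limma adjusted p = 0.051 to 0.11). Cdc42 kept its call only without WT S1_S2 replicate 5 or WT S3 replicate 1. Rac1, Rac2 and Rhoa were not called.

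Dock2, the main Rac exchange factor of lymphocyte migration, read 11.19, 11.51 and 11.76 in WT S1_S2 and 11.60, 11.78 and 12 in WT S3, with 5 of 7 S3 arrays above all S1_S2 arrays of their block. The rise was 0.34 (SE 0.08, limma adjusted p = 0.0024), and 0.28 and 0.40 within the blocks (limma adjusted p = 0.16 and 0.045). Stk10, a kinase that phosphorylates ERM proteins, read 10.91 to 11.09 in WT S1_S2 and 11.18 to 11.29 in WT S3, without overlap. Its rise of 0.21 (SE 0.06, limma adjusted p = 0.018) was not past the threshold without WT S1_S2 replicate 3 (limma adjusted p = 0.052) or within either block (0.25 and 0.15, limma adjusted p = 0.12 and 0.41). Capg, which caps filament ends, and Flna, which crosslinks filaments into networks, were the called turnover and bundling genes, at 0.26 (SE 0.08, limma adjusted p = 0.02) and -0.28 (SE 0.09, limma adjusted p = 0.035). Capg was at 0.31 and 0.21 within the blocks (limma adjusted p = 0.092 and 0.4). It lost its call without WT S1_S2 replicate 1 (limma adjusted p = 0.062), without the block term or with a random block. Flna lost it in 8 of 13 fits that left out 1 array, namely WT S1_S2 replicates 1, 2, 4 and 6 and WT S3 replicates 2, 3, 5 and 7 (limma adjusted p = 0.055 to 0.11), and was at -0.28 and -0.29 within the blocks (limma adjusted p = 0.18 and 0.34).

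In Mst1KO cells the step from S1_S2 to S3 gave 5 members higher and 0 lower (10.6%), against 10.2% of all clusters (5.58% higher and 4.62% lower) and 14.3% of clusters above the negative controls on all arrays, with 19 members at an unadjusted p under 0.05, 2 of them lower (40.4%, against 23.2% of all clusters). The median member difference was 0.11, against -0.04 over all clusters. Besides Wipf1, Vasp and Rap1b the called members were Coro1a and Msn. Coro1a encodes coronin 1A, which helps to disassemble old filaments and is needed for T cell survival and migration. It read 11.17, 11.43, 11.31 and 11.27 in Mst1KO S1_S2 and 11.39, 11.78, 11.62, 11.62 and 11.80 in Mst1KO S3, with 4 of 5 S3 arrays above all S1_S2 arrays. The rise was 0.34 (SE 0.09, limma adjusted p = 0.015), but 0.30 to 0.41 when 1 array was left out, and not past the threshold without Mst1KO S1_S2 replicate 1 (limma adjusted p = 0.067). In WT the corresponding Coro1a difference was 0.00 (95% interval -0.16 to 0.15). Msn, the ERM protein moesin, read 10.08, 10.26, 10.15 and 10.16 at S1_S2 and 10.43, 10.60, 10.44, 10.36 and 10.44 at S3, and these did not overlap. Its rise of 0.29 (SE 0.08, limma adjusted p = 0.025) lost its call without Mst1KO S1_S2 replicates 1, 3 or 4 or Mst1KO S3 replicate 2 (limma adjusted p = 0.059 to 0.091).

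**Figure D2:**
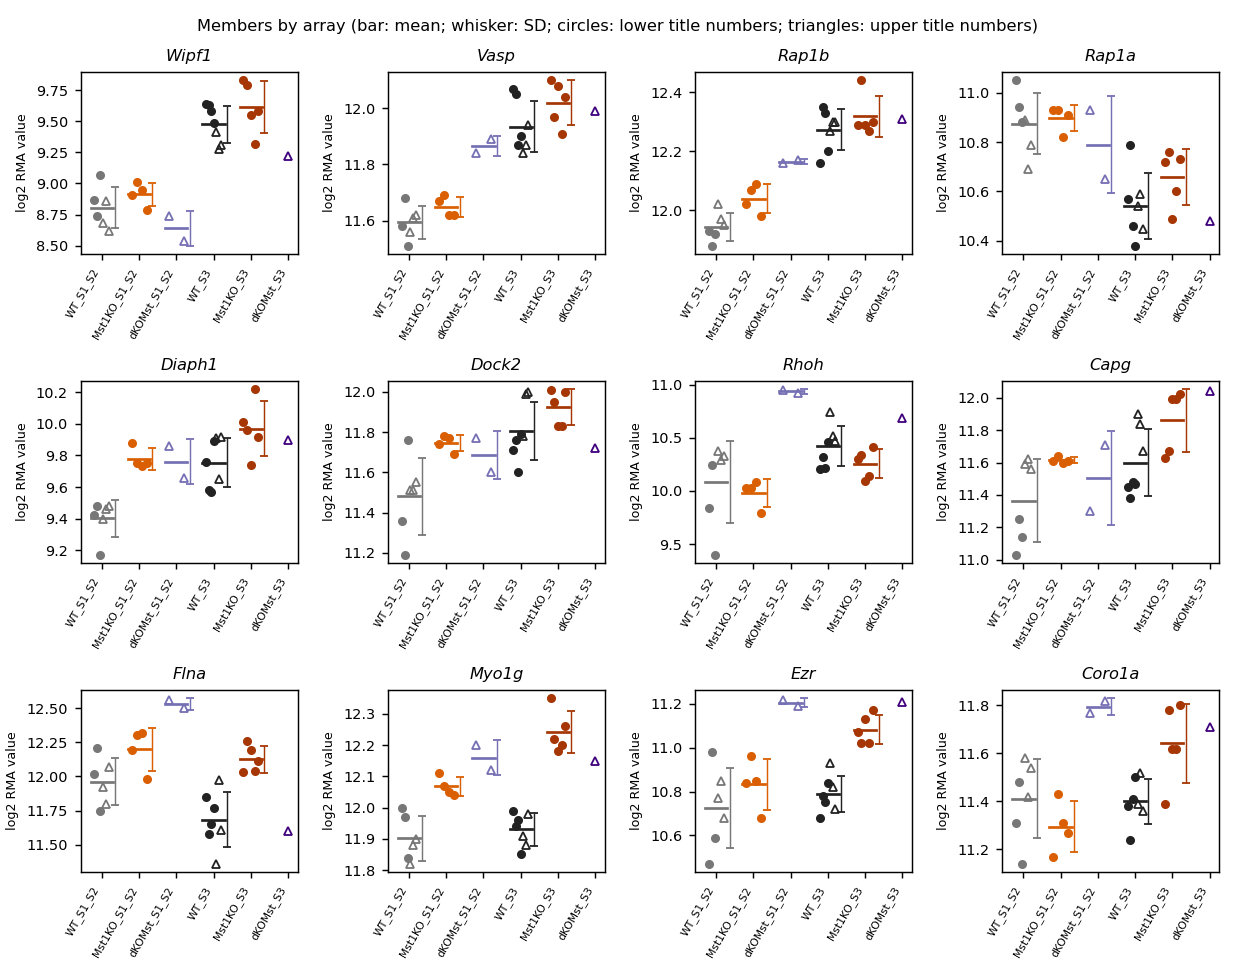
Each panel plots the log2 values of 1 member on every array in the 6 groups, with circles for lower and triangles for upper title numbers, a line at the group mean and a whisker for the SD. Wipf1, Vasp and Rap1b are higher in S3 of each genotype with replicates, and Myo1g in Mst1KO S3 (12.18 to 12.35) lies above all WT S3 arrays (11.85 to 11.99).

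At S3 the loss of Mst1 came with rises and no falls among the called members. Of the 47 members 9 were higher in Mst1KO S3 than in WT S3 and 0 were lower (19.1%), where 6.37% of all clusters and 8.68% of those above the negative controls on all arrays were called. Considering higher calls alone, the shares were 19.1% of members and 3.73% of all clusters (2.64% were lower), or 5.83% of those always above the negative controls. The members were chosen with earlier results of these data known, so the gap between these shares is a description. The estimate was above 0 for 41 members and below for 6, and over all clusters it was above 0 for 8781 and below for 13425. The median was 0.13, against -0.05 over all clusters and 0.00 over those always above the negative controls. At an unadjusted p under 0.05, 21 members were higher and 1 lower (46.8%, against 23.6% of all clusters). The called members were Myo1g, Ezr and Rock1 of the myosin and ERM class (3 of 6), Capg, Flna and Coro1a of the turnover class (3 of 8), Nckap1l, Rasgrp2 and Arpc5. None of 7 GTPases or 4 integrin linkage genes was called. The rises were small, between 1.16-fold and 1.35-fold. In the same comparison all 7 proliferation genes were higher (median 0.84), as were 2 of 7 double-positive thymocyte genes with 1 lower, 2 of 4 NK cell genes with 1 lower, and 1 of 3 gamma-delta T cell genes. Also 1 of 9 T cell and iNKT markers was higher and 1 of 11 myeloid genes lower, and the part of these markers in the members' rises was not tested.

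Myo1g, a membrane-bound class I myosin of lymphocytes that contributes to membrane tension, read 11.85, 11.94 and 11.99 in WT S3 and 12.35, 12.22, 12.18, 12.20 and 12.26 in Mst1KO S3. All 5 Mst1KO arrays lay above all 7 WT arrays, a difference of 0.30 (SE 0.06, 1.23-fold, limma adjusted p = 0.0045) that passed the test in every setting tried, and was 0.31 within the lower block (limma adjusted p = 0.027). Ezr, the ERM protein ezrin, read 10.68, 10.78 and 10.93 in WT S3 and 11.07, 11.02, 11.13, 11.02 and 11.17 in Mst1KO S3, also without overlap. It rose by 0.32 (SE 0.08, 1.25-fold, limma adjusted p = 0.023), and was not past the threshold without Mst1KO S3 replicate 5 (limma adjusted p = 0.061) or within the lower block (0.32, limma adjusted p = 0.087). Rock1, a kinase that activates myosin, read 10.37, 10.60 and 10.69 in WT S3 and 10.95, 11.02, 10.68, 10.93 and 11.01 in Mst1KO S3. Only Mst1KO replicate 3 overlapped the WT range, and the difference was 0.28 (SE 0.07, limma adjusted p = 0.029), with 0.30 within the lower block (limma adjusted p = 0.056). Rock1 lost its call without WT S3 replicates 2, 3 or 4 or Mst1KO S3 replicates 1, 2, 4 or 5 (limma adjusted p = 0.050 to 0.076). Msn and Myh9 were not called and Stk10, which phosphorylates ERM proteins, was at -0.02 (limma adjusted p = 0.88), and it was 0.02 after centring each array.

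Flna was called here and in the double mutant at S1_S2. It read 11.36, 11.65 and 11.97 in WT S3 and 12.03, 12.26, 12.19, 12.04 and 12.11 in Mst1KO S3, without overlap. The difference was 0.42 (SE 0.10, 1.33-fold, limma adjusted p = 0.02), and 0.42 within the lower block (limma adjusted p = 0.04), but not past the threshold without Mst1KO S3 replicate 2 (limma adjusted p = 0.055). Capg read 11.38, 11.48 and 11.90 in WT S3 and 11.63, 11.67, 11.99, 11.99 and 12.02 in Mst1KO S3. The WT S3 arrays of the lower block read 11.38 to 11.48 and those of the upper block 11.67 to 11.90, so Capg differs between the blocks in WT as well. Against WT of the same block all 5 Mst1KO arrays were higher, and the difference was 0.43 (SE 0.09, 1.35-fold, limma adjusted p = 0.0053), with 0.41 in the lower block alone (limma adjusted p = 0.024). Without the block term it was 0.26 (limma adjusted p = 0.26), and the call held in each fit that left out 1 array. Coro1a read 11.24, 11.39 and 11.52 in WT S3 against 11.39 to 11.80 in Mst1KO S3, a difference of 0.29 (SE 0.09, limma adjusted p = 0.044). It was 0.26 within the lower block (limma adjusted p = 0.16) and lost its call in 10 of 12 fits that left out 1 array, namely WT S3 replicates 1, 2, 3, 5, 6 and 7 and Mst1KO S3 replicates 2, 3, 4 and 5 (limma adjusted p = 0.051 to 0.12).

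The remaining calls at S3 were Nckap1l, Rasgrp2 and Arpc5. Nckap1l encodes Hem-1, the blood cell subunit of the WAVE complex, and read 10.59, 10.63, 10.64 and 10.32 on the WT S3 arrays of the lower block and 10.94, 10.95 and 10.89 on those of the upper block. The Mst1KO S3 arrays, all of the lower block, read 10.85, 11.12, 10.89, 10.85 and 10.94, above WT of that block but within the WT range as a whole. Its difference was 0.37 (SE 0.10, limma adjusted p = 0.028), or 0.39 within the block (limma adjusted p = 0.083) and 0.22 without the block term (limma adjusted p = 0.35), and it lost its call without WT S3 replicate 4 or Mst1KO S3 replicates 2 or 5 (limma adjusted p = 0.057 to 0.077). Rasgrp2, the calcium-dependent exchange factor for Rap1, read 9.97, 10.14 and 10.76 in WT S3 and 10.48, 10.59, 10.97, 10.56 and 10.69 in Mst1KO S3. It differed by 0.43 (SE 0.13, limma adjusted p = 0.047), with 0.50 within the lower block (limma adjusted p = 0.032), and lost its call without WT S3 replicates 1, 2, 3 or 5 or Mst1KO S3 replicates 2, 3, 4 or 5 (limma adjusted p = 0.050 to 0.11). Arpc5, a subunit of the Arp2/3 complex, read 11.65, 11.85 and 11.94 in WT S3 and 11.88, 12.08, 11.97, 11.93 and 12.03 in Mst1KO S3. The difference of 0.21 (SE 0.06, limma adjusted p = 0.045) was 0.20 within the block (limma adjusted p = 0.16), and the call held in 3 of 12 fits that left out 1 array, those without WT S3 replicates 1 or 2 or Mst1KO S3 replicate 1, and otherwise the adjusted p was 0.055 to 0.11.

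Fitted alone, the lower block gave 4 members at S3 (Myo1g, Capg, Flna and Rasgrp2), and in the fit over both blocks the count fell from 9 to 3 without Mst1KO S3 replicate 2 or without replicate 5. All 4 arrays without Y-linked signal are Mst1KO. With a term for that signal 7 members were called at S3, 6 of them among the 9, and Arpc5, Coro1a and Rasgrp2 lost their calls. Several members tied to Mst1 as signalling partners were not called. Dock8, the Cdc42 exchange factor, differed by 0.04 (95% interval -0.09 to 0.18, limma adjusted p = 0.71), with 11.10 (SD 0.11, n = 7) in WT S3 and 11.11 (SD 0.05, n = 5) in Mst1KO S3. Rhoa differed by 0.15 (SE 0.06, limma adjusted p = 0.11), and Tln1, which encodes talin, by 0.16 (SE 0.09, limma adjusted p = 0.29). Rap1a, Rap1b and Dock2 differed by 0.08, 0.07 and 0.19 (limma adjusted p = 0.58, 0.51 and 0.19). Actb differed by 0.10 (SE 0.05, limma adjusted p = 0.26).

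**Figure D3:**
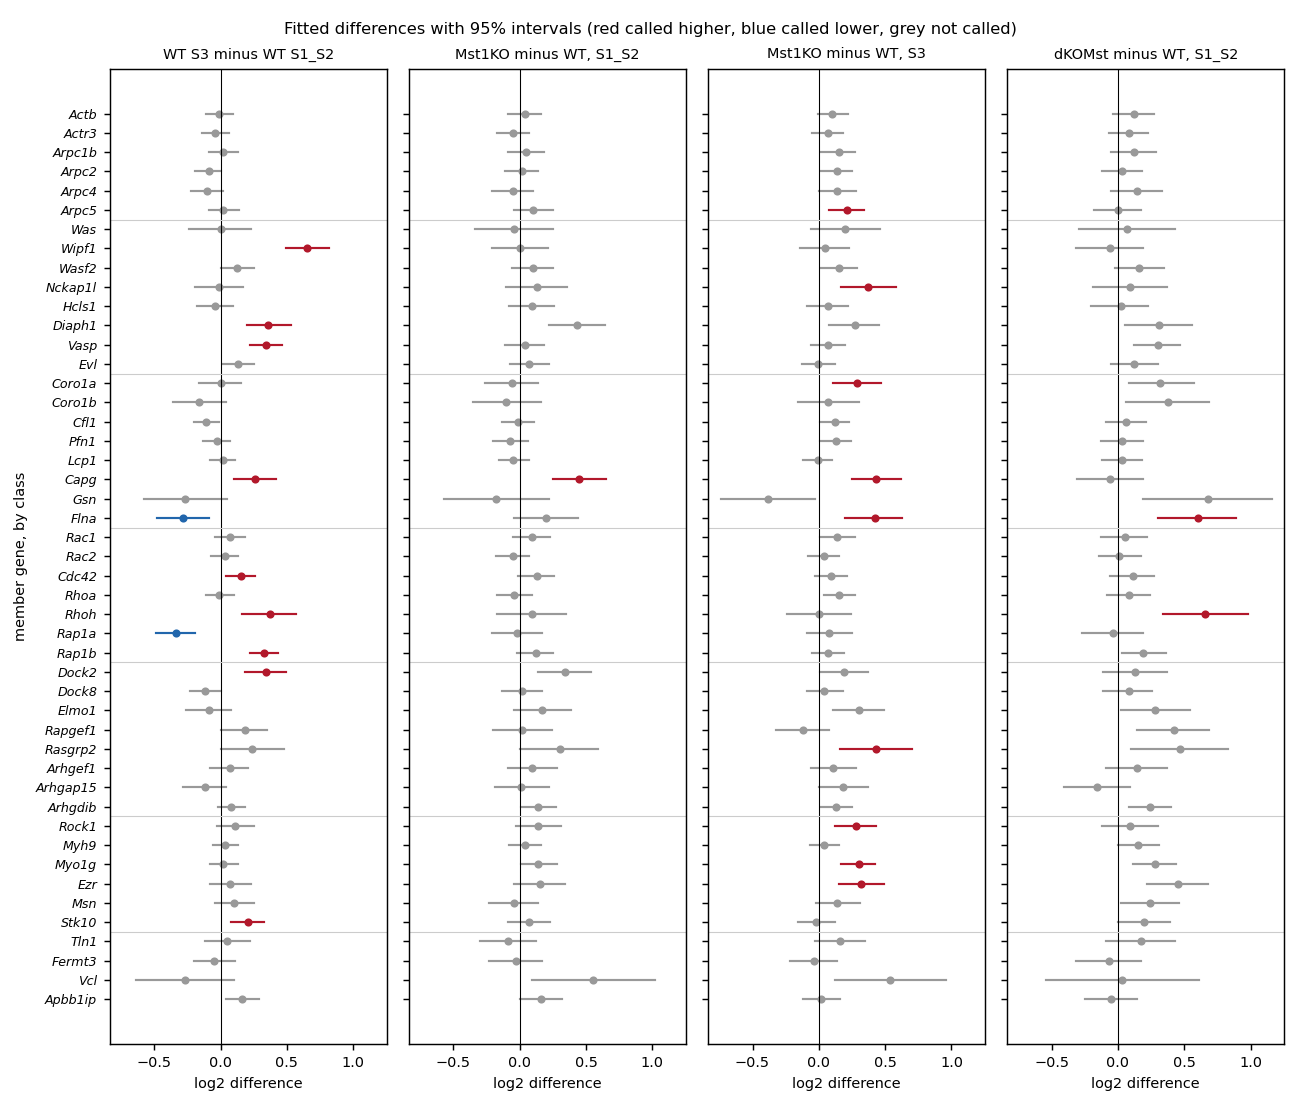
Points are fitted log2 differences of the 47 members with 95% intervals in 4 comparisons, in red where called higher, blue where called lower and grey where not called. The Mst1KO differences at S3 lie mostly to the right of 0 (41 of 47), those between WT stages on both sides (27 above and 20 below).

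At S1_S2 the loss of Mst1 left nearly all members within the error of the fit. Capg was the only call (1 of 47, 2.13%, against 0.522% of all clusters), the median was 0.05 against -0.01, and 6 members were higher at an unadjusted p under 0.05 (12.8%, against 8.65% of all clusters). Capg read 11.03, 11.25, 11.14, 11.59, 11.62 and 11.56 in WT S1_S2 and 11.61, 11.64, 11.60 and 11.61 in Mst1KO S1_S2. The first 3 WT arrays belong to the lower block, like the Mst1KO arrays, and the last 3 to the upper block, where WT Capg equals the mutant level. The difference of 0.45 (SE 0.10, 1.37-fold, limma adjusted p = 0.033) was 0.48 within the lower block (limma adjusted p = 0.078) and 0.25 without the block term (limma adjusted p = 0.64). It lost its call without WT S1_S2 replicates 1, 2 or 3 or without any 1 Mst1KO S1_S2 array (limma adjusted p = 0.052 to 0.13), and with a term for Y-linked signal (0.40, limma adjusted p = 0.15). Diaph1 and Dock2 came next: Diaph1 read 9.73 to 9.88 in Mst1KO S1_S2, above all 6 WT arrays, with a difference of 0.43 (SE 0.10, limma adjusted p = 0.055), and Dock2 differed by 0.34 (SE 0.10, limma adjusted p = 0.14). Dock8 differed by 0.02 (95% interval -0.13 to 0.17).

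Whether the effect of Mst1 loss differed between stages was tested directly. No member passed (0 of 47, lowest limma adjusted p = 0.34), against 0.158% of all clusters called and 0.0901% called higher. At an unadjusted p under 0.05 it was 3 members (6.38%), against 9.49% of all clusters. For no member was the Mst1 effect at S3 shown to differ from that at S1_S2. Coro1a had an interaction of 0.35 (95% interval 0.10 to 0.59, limma adjusted p = 0.34), and Pfn1, which feeds actin monomers to growing filaments, had 0.20 (SE 0.08, limma adjusted p = 0.41). Myo1g was at 0.15 (95% interval -0.02 to 0.32), Flna at 0.21 (-0.09 to 0.51) and Capg at -0.02 (-0.27 to 0.23).

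In dKOMst S1_S2, with 2 arrays, Flna and Rhoh were higher than in WT S1_S2 and 0 members were lower (4.26%, against 0.923% of all clusters, 0.554% for higher calls, and 1.29% of those above the negative controls on all arrays). The median difference was 0.12, against 0.01 over all clusters, and 17 members were higher and 0 lower at an unadjusted p under 0.05 (36.2%, against 10.6% of all clusters). Flna read 12.56 and 12.50 in dKOMst and 12.02, 12.21, 11.75, 11.92, 11.80 and 12.07 in WT S1_S2. Both arrays were above all WT arrays, by 0.60 (SE 0.14, 1.51-fold, limma adjusted p = 0.044). Rhoh read 10.95 and 10.92 in dKOMst and 9.84, 10.24, 9.40, 10.38, 10.29 and 10.33 in WT S1_S2, again all lower, and the difference was 0.66 (SE 0.16, 1.58-fold, limma adjusted p = 0.041). Within the upper block, where 3 WT arrays remain, both differences were 0.60 (limma adjusted p = 0.24 for Flna and 0.08 for Rhoh). Flna lost its call without WT S1_S2 replicates 1, 4 or 5 or either dKOMst array (limma adjusted p = 0.054 to 0.41), and Rhoh without WT S1_S2 replicates 1, 4, 5 or 6 or either dKOMst array (limma adjusted p = 0.055 to 0.38). Ezr, at 11.22 and 11.19 against 10.47, 10.72 and 10.98 in WT, differed by 0.45 (SE 0.11, limma adjusted p = 0.058), and Myo1g by 0.28 (SE 0.08, limma adjusted p = 0.12). Of 4 measured NK cell genes 2 were higher in dKOMst S1_S2 (list means 6.81 to 7.05, against 5.67 to 6.19 in WT). So were 2 of 11 myeloid and dendritic genes, among them Itgam at 7.25 to 7.56 against 6.15 to 6.85, while 1 of 9 T cell and iNKT markers was lower, and the part of these markers was not tested.

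Flna can be set side by side over the genotypes, with the caution that the comparisons share WT arrays. At S1_S2 it averaged 11.96 (SD 0.17, n = 6) in WT, 12.20 (SD 0.16, n = 4) in Mst1KO and 12.53 (SD 0.05, n = 2) in dKOMst, and the Mst1KO difference from WT was 0.20 (SE 0.12, limma adjusted p = 0.7). At S3 it averaged 11.68 (SD 0.20, n = 7) in WT and 12.13 (SD 0.10, n = 5) in Mst1KO, while the dKOMst array read 11.60. No member was called between dKOMst and Mst1KO at S1_S2 (0 of 47, lowest limma adjusted p = 0.18, against 0.171% of all clusters called), and with 2 dKOMst arrays this does not show that they are alike. At an unadjusted p under 0.05 it was 10 members (21.3%, against 8.5% of all clusters). These genotypes lie in different number blocks, so that contrast rests on the block term estimated from WT. Flna differed by 0.39 (95% interval 0.04 to 0.75), Rhoh by 0.57 (0.18 to 0.96) and Capg by -0.51 (-0.81 to -0.21), and none passed (limma adjusted p = 0.52, 0.29 and 0.18).

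The single dKOMst S3 array allows no test, and its values were set against the 3 WT S3 arrays of the same block. A log2 difference of at least 0.5 was reached by 1 of 47 members, and by 6.42% of all clusters (2.77% higher and 3.64% lower), and the median member difference was 0.05. That member was Vcl, which encodes vinculin, at 7.08 against 5.36 to 6.39 in WT, levels near the negative controls. Flna read 11.60 against 11.36 to 11.97 in all WT S3 arrays, and Wipf1 read 9.22 against 9.28 to 9.64.

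**Figure D4:**
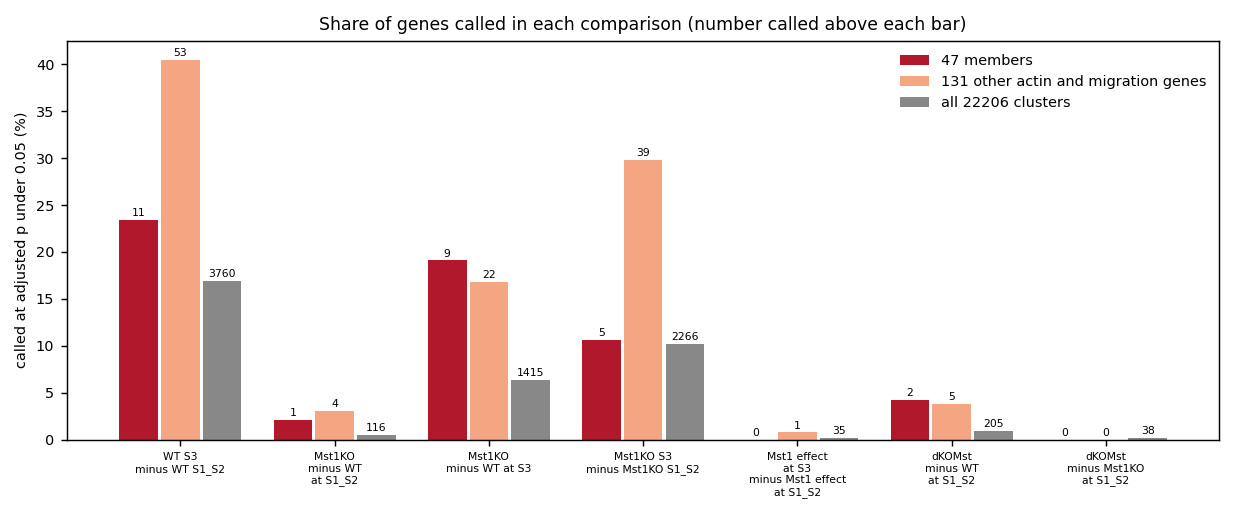
Bars give the percent of genes called in each comparison for the 47 members, 131 other actin and migration genes and all 22206 clusters, with the number called above each bar. For Mst1KO minus WT at S3 the share was 19.1% of members and 6.37% of all clusters, and for WT S3 minus WT S1_S2 it was 23.4% and 16.9%.

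A further 137 actin and migration genes outside the module were listed, paralogs and partners of the members, and 131 were measured. Between WT stages 37 were higher and 16 lower (40.5%), between Mst1KO stages 32 higher and 7 lower (29.8%), for Mst1KO minus WT at S3 19 higher and 3 lower (16.8%), and at S1_S2 4 higher (3.05%). For dKOMst minus WT at S1_S2 5 were higher (3.82%). The members' shares in the same comparisons were 23.4%, 10.6%, 19.1%, 2.13% and 4.26%. Over all clusters the shares were 16.9%, 10.2%, 6.37%, 0.522% and 0.923%. Among clusters above the negative controls on all arrays they were 24.6% between WT stages and 14.3% between Mst1KO stages. For Mst1KO at S3 and dKOMst at S1_S2 they were 8.68% and 1.29%. This list was also chosen with earlier results of these data known, so the gaps are a description. Differences were also larger outside the module, between -1.51 and 1.89 for the WT step, against -0.34 and 0.65 among members.

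Coro2a, a coronin, read 8.63, 9.19 and 9.53 in WT S1_S2 and 10.82, 11.02 and 11.24 in WT S3, a rise of 1.89 (SE 0.11, 3.7-fold, limma adjusted p = 8e-12). Myo1f, a class I myosin of blood cells, rose by 1.87 (SE 0.10, limma adjusted p = 3.8e-12) from 9.77 (SD 0.34, n = 6) to 11.62 (SD 0.18, n = 7). Rhob, a small GTPase, rose by 1.87 (SE 0.21, limma adjusted p = 5.7e-07), from 7.53, 7.86 and 8.68 to 9.10, 9.87 and 10.83. None of the 3 overlapped between the WT stages. Among the falls were Diaph3, a formin of dividing cells, at -1.51 (SE 0.13, limma adjusted p = 4e-09), Tiam1, a Rac exchange factor, at -1.41 (SE 0.15, limma adjusted p = 2.3e-07) and Cit, the citron kinase of cytokinesis, at -1.07 (SE 0.15, limma adjusted p = 6.3e-06). Diaph3 and Cit moved beside the 7 proliferation genes that fell in the same comparison. In Mst1KO cells Coro2a rose by 2.14 (SE 0.13, limma adjusted p = 6.4e-11) and Rhoc, another small GTPase, by 1.53 (SE 0.17, limma adjusted p = 6.5e-07), whereas Actn1, the filament crosslinker alpha-actinin, fell by 0.88 (SE 0.16, limma adjusted p = 0.00054).

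**Figure D5:**
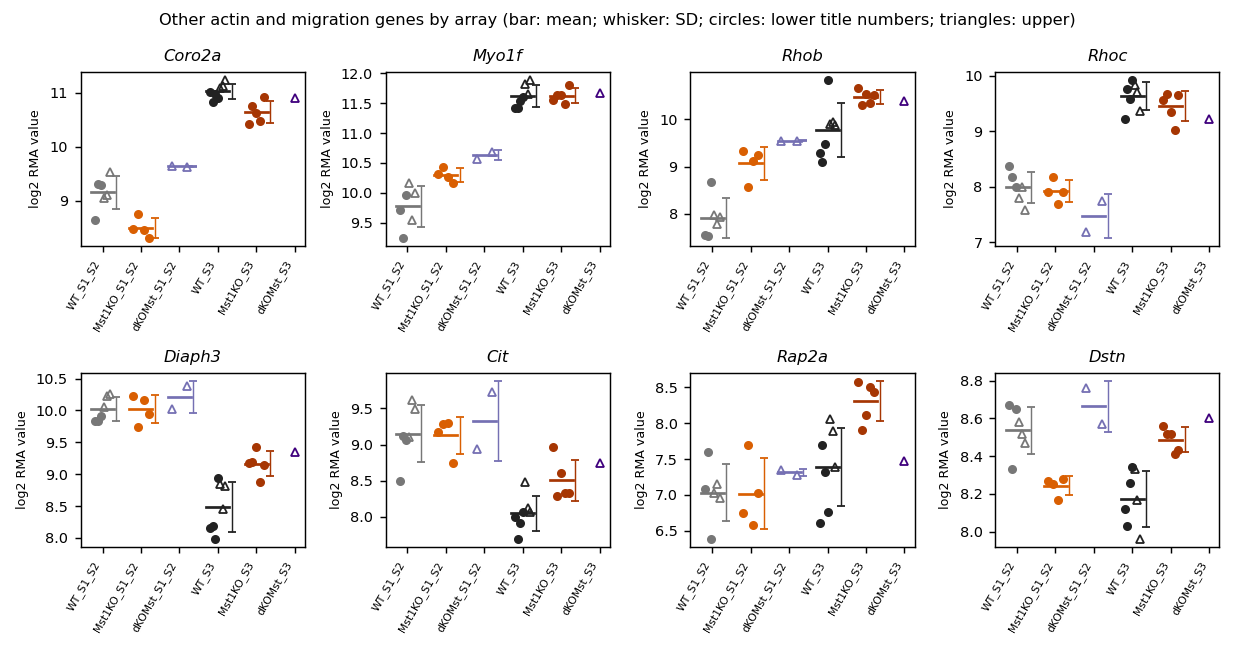
Each panel plots the log2 values of 1 further actin or migration gene on every array in the 6 groups, with circles for lower and triangles for upper title numbers, a line at the group mean and a whisker for the SD. Coro2a, Myo1f, Rhob and Rhoc are higher and Diaph3 and Cit lower in WT S3 than in WT S1_S2, and Dstn moves in opposite directions with Mst1 loss at the 2 stages.

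At S3 Rap2a, a Rap GTPase, read 6.61, 7.39 and 8.06 in WT and 7.91 to 8.57 in Mst1KO, with some overlap and a difference of 1.08 (SE 0.24, limma adjusted p = 0.01), and 1.21 within the lower block (limma adjusted p = 0.023). Diaph3 was higher by 0.83 (SE 0.14, limma adjusted p = 0.0015), beside the 7 proliferation genes that were also higher in Mst1KO S3. Rassf5 encodes RAPL, the adaptor that links Rap1 to Mst1. It read 11.67, 11.73 and 11.91 in WT S3 and 11.38 to 11.54 in Mst1KO S3, without overlap, and was lower by 0.28 (SE 0.08, limma adjusted p = 0.04). Within the lower block the Rassf5 difference was -0.30 (limma adjusted p = 0.096), and its call was lost without WT S3 replicates 1, 2, 3 or 6 or Mst1KO S3 replicates 1, 2, 4 or 5 (limma adjusted p = 0.051 to 0.098). At S1_S2 Rhob was higher in dKOMst, at 9.54 and 9.55, than in WT, at 7.53 to 8.68, by 1.58 (SE 0.33, limma adjusted p = 0.017), or 1.65 within the upper block (limma adjusted p = 0.00062), and the call was lost without dKOMst replicate 1 or 2 (limma adjusted p = 0.23 and 0.12). In Mst1KO S1_S2 Rhob read 8.57 to 9.32, a difference of 1.21 (SE 0.27, limma adjusted p = 0.038) that was 1.14 within the lower block (limma adjusted p = 0.26). It lost its call without WT S1_S2 replicates 1, 2, 4, 5 or 6 or Mst1KO S1_S2 replicates 1, 3 or 4 (limma adjusted p = 0.051 to 0.14).

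Rasa3, a GTPase-activating protein that switches off Ras and Rap1, was called in each of the mutant comparisons with WT that had a test, which share WT arrays. At S1_S2 it read 10.40, 10.51 and 10.69 (lowest, median and highest) in WT, 10.97, 11.18, 10.96 and 10.96 in Mst1KO, and 11.49 and 11.25 in dKOMst, and at S3 10.25, 10.72 and 10.86 in WT and 10.96 to 11.08 in Mst1KO. No mutant array of these groups overlapped the WT arrays of its stage, while the dKOMst S3 array read 10.81. The differences were 0.84 in dKOMst S1_S2 (SE 0.14, limma adjusted p = 0.0015), 0.50 in Mst1KO S1_S2 (SE 0.11, limma adjusted p = 0.035) and 0.40 in Mst1KO S3 (SE 0.10, limma adjusted p = 0.018), of which the Mst1KO values were singled out after they were seen. Within blocks they were 0.88, 0.46 and 0.44 (limma adjusted p = 0.063, 0.14 and 0.027). The dKOMst call was lost without dKOMst replicate 1 (limma adjusted p = 0.12), and the Mst1KO S1_S2 call without WT S1_S2 replicates 1, 2 or 4 or any 1 Mst1KO array (limma adjusted p = 0.052 to 0.16).

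Dock5, a Rac exchange factor, was higher in Mst1KO at both stages, by 0.92 at S1_S2 (SE 0.21, limma adjusted p = 0.048) and 0.74 at S3 (SE 0.19, limma adjusted p = 0.023), and all 9 Mst1KO arrays lay above the WT arrays of their stage. The S1_S2 call was lost in 8 of 10 fits that left out 1 array, all but those without WT S1_S2 replicates 3 or 6 (limma adjusted p = 0.059 to 0.2), and the S3 call without WT S3 replicate 2 or Mst1KO S3 replicate 5 (limma adjusted p = 0.058 and 0.057). Myo1f was higher in Mst1KO S1_S2, at 10.16 to 10.44 against 9.24 to 10.17, by 0.66 (SE 0.13, limma adjusted p = 0.016), a call lost without WT S1_S2 replicate 2 or Mst1KO S1_S2 replicates 1 or 2 (limma adjusted p = 0.054 to 0.078). Actn1 moved in different directions in the mutant comparisons. It was higher in dKOMst S1_S2, at 9.41 and 9.30 against 7.99 to 8.67 in WT, by 0.90 (SE 0.21, limma adjusted p = 0.031), and lower in Mst1KO S3, at 7.25 to 7.57 against 7.72 to 8.74, by 0.52 (SE 0.15, limma adjusted p = 0.04). The dKOMst call was lost without WT S1_S2 replicates 4 or 5 or either dKOMst array (limma adjusted p = 0.082 to 0.38), and the Mst1KO call without WT S3 replicates 2 or 3 or Mst1KO S3 replicates 2, 3, 4 or 5 (limma adjusted p = 0.051 to 0.089). Limk1, the kinase that inactivates cofilin, was lower in Mst1KO S3 by 0.35 (SE 0.10, limma adjusted p = 0.033), and lost its call without WT S3 replicates 3 or 4 or Mst1KO S3 replicates 1, 2, 4 or 5 (limma adjusted p = 0.055 to 0.084). Within the blocks the adjusted p was 0.15 and 0.054 for Dock5 at the 2 stages, 0.062 for Myo1f, 0.15 and 0.072 for Actn1 and 0.076 for Limk1, by limma.

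Dstn, which encodes destrin, a relative of cofilin that severs filaments, was the 1 of 131 further genes (0.763%, against 0.158% of all clusters) whose Mst1 effect differed between stages. It averaged 8.54 (SD 0.13, n = 6) in WT S1_S2, 8.24 (SD 0.05, n = 4) in Mst1KO S1_S2, 8.17 (SD 0.15, n = 7) in WT S3 and 8.49 (SD 0.06, n = 5) in Mst1KO S3. The Mst1KO arrays were lower than WT at S1_S2 (-0.31, SE 0.09, limma adjusted p = 0.17) and higher at S3 (0.30, SE 0.08, limma adjusted p = 0.031), without overlap at either stage. The difference between these effects was 0.61 (SE 0.11, limma adjusted p = 0.025). It was 0.61 within the lower block (limma adjusted p = 0.14), and was not past the threshold without Mst1KO S1_S2 replicates 2 or 3 or Mst1KO S3 replicate 2 (limma adjusted p = 0.051, 0.061 and 0.059). A fixed block for stages paired by title number also lost this call.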

How the data were processed

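Clariom S mouse arrays of 25 thymic iNKT samples were analysed. The values are the log2 intensities that the authors deposited, and the submitters' processing notes name RMA and Affymetrix Expression Console 1.1. Per the labels' protocols, RNA was amplified with NuGEN WTA Pico v2 and labelled with the NuGEN Encore Biotin module. RMA quantile-normalises arrays, so a shift common to all genes is not measured. No genome build is named in the sources used here. Of 28846 items 6640 control items were left out, and 22206 clusters were used as deposited.

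The linear model (limma 3.58.1, R 4.3.3) had 6 group means plus a term for the block of title numbers, with moderated variances, leaving 18 residual degrees of freedom. P-values were adjusted by Benjamini-Hochberg over all clusters of a comparison, and a call is an adjusted p under 0.05. Arrays give no read depth, and their number limits the precision. Members were matched through the probe table by single symbol (highest mean where several), and no member had several clusters.

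Named genes were the called members, members known in Mst1 signalling to migration, uncalled members with the smallest adjusted p of their class, and up to 3 called rises and falls of largest size among the further genes. Members and lists were chosen with earlier results of these data known. Motifs were searched in RefSeq upstream windows. The fit was checked on simulated data. Alternatives dropped the block term, made it random, fitted each block or only the groups compared, quantile-normalised or centred the arrays again, kept clusters above the negative controls on at least 4 arrays, used a trended robust variance, added a term for Y-linked signal, took the lowest-mean cluster, blocked on pairs of stages by title number, or left out each array in turn.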

Additional observations from a re-analysis of the deposited data

Results flagged for a closer look

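Of 188 pairs of a member and a group, 14 had 1 array further from the rest than Dixon's 95% critical value allows. Chance alone marks about 1 in 20 groups. In Mst1KO S1_S2, Was on replicate 2 read 8.34 (next 7.92), Wasf2 on replicate 3 read 12.22 (next 12.32), Diaph1 on replicate 1 read 9.88 (next 9.75), Rap1a on replicate 3 read 10.82 (next 10.91), Dock8 on replicate 1 read 11.08 (next 11.23) and Apbb1ip on replicate 2 read 9.55 (next 9.44). In Mst1KO S3, Evl on replicate 4 read 12.05 (next 12.12), Cdc42 on replicate 2 read 12.86 (next 12.79), Rap1b on replicate 2 read 12.44 (next 12.30) and Rock1 on replicate 3 read 10.68 (next 10.93). In WT S1_S2, Diaph1 on replicate 3 read 9.17 (next 9.40), Pfn1 on replicate 4 read 12.96 (next 12.80) and Tln1 on replicate 1 read 11.04 (next 11.29). In WT S3, Rock1 on replicate 7 read 10.37 (next 10.56).

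Dstn, the destrin gene, differed in its response to Mst1 loss between stages, with an interaction of 0.61 (limma adjusted p = 0.025).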

How the results depend on the processing

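Of 55 called gene results that the text draws on, none changed direction in any setting, 19 passed the threshold in every setting and 27 in every fit that left out 1 array. Taking the lowest-mean cluster, 1 of these settings, could not change a member, since no member had several clusters. Between WT stages 11 members were called, 4 and 2 in the lower and upper number block alone, and 9 to 11 without 1 array. Over all clusters the counts were 3760, 1921 and 1904. For Mst1KO at S1_S2 1 member was called, and 0 with no block term, a random block, the lower block alone, a Y-signal term or only the groups compared, 2 after the filter on negative controls, 3 with a trended robust variance, and 0 to 1 without 1 array. Over all clusters it gave 116, and 64 in the lower block, 69 with a Y-signal term, 56 with only the groups compared and 66 to 174 without 1 array. For Mst1KO at S3 9 were called, 4 with no block term, a random block or the lower block alone, 5 after quantile normalization, 7 with a Y-signal term, 17 with a trended robust variance, 2 with only the groups compared and 3 to 8 without 1 array. Over all clusters these counts were 1415, and 731 with no block term, 858 with a random block, 679 in the lower block, 988 with a Y-signal term and 501 with only the groups compared, and 783 to 1399 without 1 array. Among the further genes the Y-signal term also removed the Mst1KO calls of Actn1 and Rassf5 at S3 and of Rhob, Dock5 and Rasa3 at S1_S2. Between Mst1KO stages 5 were called, 14 after centring each array, 10 after the filter, 13 with the trended robust variance and 3 to 7 without 1 array, 3 being without Mst1KO S1_S2 replicate 1. For dKOMst minus WT 2 were called, 0 in the upper block, after centring or with only the groups compared, 6 with the trended robust variance, 1 with a Y-signal term and 0 to 3 without 1 array, 0 being without WT S1_S2 replicates 1, 4 or 5 or either dKOMst array, and 1 without WT S1_S2 replicate 6. Over all clusters it gave 205 calls, 68 in the upper block, 343 with the trended robust variance, 60 with only the groups compared and 33 to 230 without 1 array. For the interaction and for dKOMst minus Mst1KO 0 members were called with 1 array left out, and the latter gave 1 with no block term. Over all clusters the interaction gave 35, and 17 with no block term, 10 in the lower block and 14 to 61 without 1 array, and dKOMst minus Mst1KO gave 38, and 195 with no block term, 81 with a random block and 4 to 52 without 1 array. The latter could not be fitted within a block or with only its own groups. The dKOMst S3 array kept 1 member past the fold throughout, also against all WT S3 arrays, a reference chosen after seeing the data. The cause of these changes was not tested.

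Values near 0 that changed sign, none of them called, were Dock8 in Mst1KO at S1_S2 (-0.01 with no block term), at S3 (-0.02 after quantile normalization) and in dKOMst (0.00 and 0.16 without dKOMst replicate 1 and 2), Stk10 in Mst1KO at S3 (0.02 after centring, 0.03 with a Y-signal term, -0.07 to 0.02 without 1 array) and Capg in dKOMst (0.14 with no block term, 0.05 with a random block, -0.26 to 0.14 without 1 array). The labels state no pairing, but title numbers of S3 arrays lie a constant step (16 in the lower block, 6 in the upper) above those of S1_S2 arrays. Deviations of the 10 WT and Mst1KO pairs so formed correlated at -0.11 to 0.17, with 2 over 0.1. Each of the 10 S1_S2 arrays was closest to its partner among the 3 to 5 S3 arrays of its genotype and block. This hint of pairing comes from the data and not from the design, and the main fit did not pair the arrays. A fixed block for these pairs, chosen after seeing the data, gave 8 members between WT stages, 3 between Mst1KO stages and 0 for the interaction. Calls lost under it were Flna, Cdc42 and Stk10 (limma adjusted p = 0.096, 0.18 and 0.08), Coro1a and Msn (0.092 and 0.09) and the Dstn interaction (0.64, limma adjusted p = 0.071). As a random block the pairs gave 8 members between Mst1KO stages and kept the member counts of the 6 other comparisons with a test. Over all clusters the interaction gave 9 and 53 with the fixed and the random block. Dim clusters such as Gsn and Vcl are limited by background signal.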
